A study of Rattus norvegicus with 6 samples.

Results

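The 10 genes described here encode protein disulfide isomerases, their relatives and the oxidases that drive disulfide bond formation in the endoplasmic reticulum (ER), and they were followed in PWS and control INS-1 lines. They are the protein disulfide isomerases P4hb, Pdia3, Pdia4, Pdia5, Pdia6 and Txndc5, their relatives Erp29 and Erp44, the ER oxidase Ero1b and the peroxiredoxin Prdx4. They were taken by gene name from a table of 32900 features, and all 10 were among the 15579 genes with enough reads to be tested. INS-1(832/13)::mCherry is a rat insulinoma line that makes rat insulin and also carries a human insulin transgene and a mouse Ins2-mCherry transgene, which reports insulin granules. All 6 lines are edited clones with a deletion of the imprinted Prader-Willi syndrome (PWS) domain on the silent maternal allele. In the 3 control lines (5-9, 2 and 16) that is the only deletion, so the paternal copy is still expressed, while in the 3 PWS lines (3, 19-1 and 19-4) the domain is deleted on both alleles. The paternal deletion of line 3 has a different proximal breakpoint and is larger than that of lines 19-1 and 19-4. Every other line was derived from line 5-9, and lines 19-1 and 19-4 are subclones of one line, so that the PWS group stands for 2 clones. Cells were grown in 7.5 mM glucose without treatment, and total RNA was sequenced once per line after removal of rRNA.

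Disulfide bonds hold insulin's A and B chains together, and a β-cell that makes much proinsulin depends on this machinery. A protein disulfide isomerase passes a disulfide to a folding protein or rearranges a wrong one and is itself left reduced. ERO1 oxidases then re-oxidize it with oxygen and release hydrogen peroxide, which PRDX4 can use to make further disulfides.

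The libraries held between 26016478 and 36084261 counts, where a read that aligned to several features was counted at each. With such reads dropped they held 17530149 to 23022637. In the normalized counts used below, which are counts divided by a size factor for each library, 1 read was worth 0.909 to 1.2. Snrpn, a gene of the deleted domain, had 3149 to 3956 normalized counts in each control line, while PWS lines had 0 to 4 reads. Of 11 β-cell marker genes in the table, all 11 were expressed in every line, with summed levels of 50769 to 53633 normalized counts in control and 45064 to 51866 in PWS lines, and 0 of them had a limma p-value under 0.05, adjusted by Benjamini-Hochberg or not. Their log2 differences (PWS minus control) ran from -0.22 for Kcnj11, which was at -0.09 without line 19-4, to 0.14 for Isl1, which was at 0.003 without control line 2. Markers of acinar cells summed to at most 2.05 normalized counts in any control line and 2.04 in any PWS line. Markers of stromal, immune and endothelial cells summed to 34.2 to 41.3 in control and 33.5 to 42.7 in PWS lines, and Dcn and Ptprc had no read, while Cd68 and Kdr were the tested ones, with log2 differences of -0.09 (-0.02 without control line 2, -0.44 by RSEM) and 0.15 (-0.24 to 0.55 with 1 line left out). Among hormones of other islet cells, Sst had no read, and Gcg, the glucagon gene, ranged from 0 to 19.0 in control lines and from 13.2 to 100.01 in PWS lines, where line 19-4 was highest. The part of these differences in the results was not tested. Each line grew as 1 culture, so the p-values measure the spread between lines, and differences between cultures are part of it.

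As a group, the 10 genes were slightly lower on average in PWS lines. On average 7 of the 10 were lower and 3 were higher, in a list chosen with earlier results of these data known. The log2 differences (PWS minus control, fitted on log2(normalized count + 1) and given below with their standard error, SE) had a median of -0.19. Over all tested genes it was -0.0028, which the size factors hold near 0, so tested genes were about as often lower as higher. Pdia4, Ero1b, Pdia6 and Erp44 had the most negative values, from -0.56 to -0.40, which corresponds to 68.1% to 75.5% of the control mean. Without control line 2, P4hb (-0.34) and Pdia3 (-0.28) were at least as negative as Erp44 (-0.27), and no test compared the members with each other. At an adjusted p-value of 0.05 no member was called by limma or in edgeR's quasi-likelihood test, with 0.25% of the tested genes called lower by limma and 0.199% by edgeR. Without adjustment, those 4 members had a limma p-value under 0.05 in the lower direction, as did 5.35% of all tested genes, and 0 members had one in the higher direction, as did 6% of all tested genes. edgeR gave 4 members an unadjusted p-value under 0.05 in the lower direction, as it did 5.24% of all tested genes. DESeq2 on the recovered reads called 1 member lower at an adjusted p-value of 0.05, Pdia4, where it called 0.784% of all genes lower, and 3 members at 0.1 (Pdia4, Erp44 and Pdia6), where it called 1.16%. Without control line 16 the median was -0.09. In RNA from whole cultures, fewer cells with a transcript and less of it per cell cannot be told apart.

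**Figure D1:**
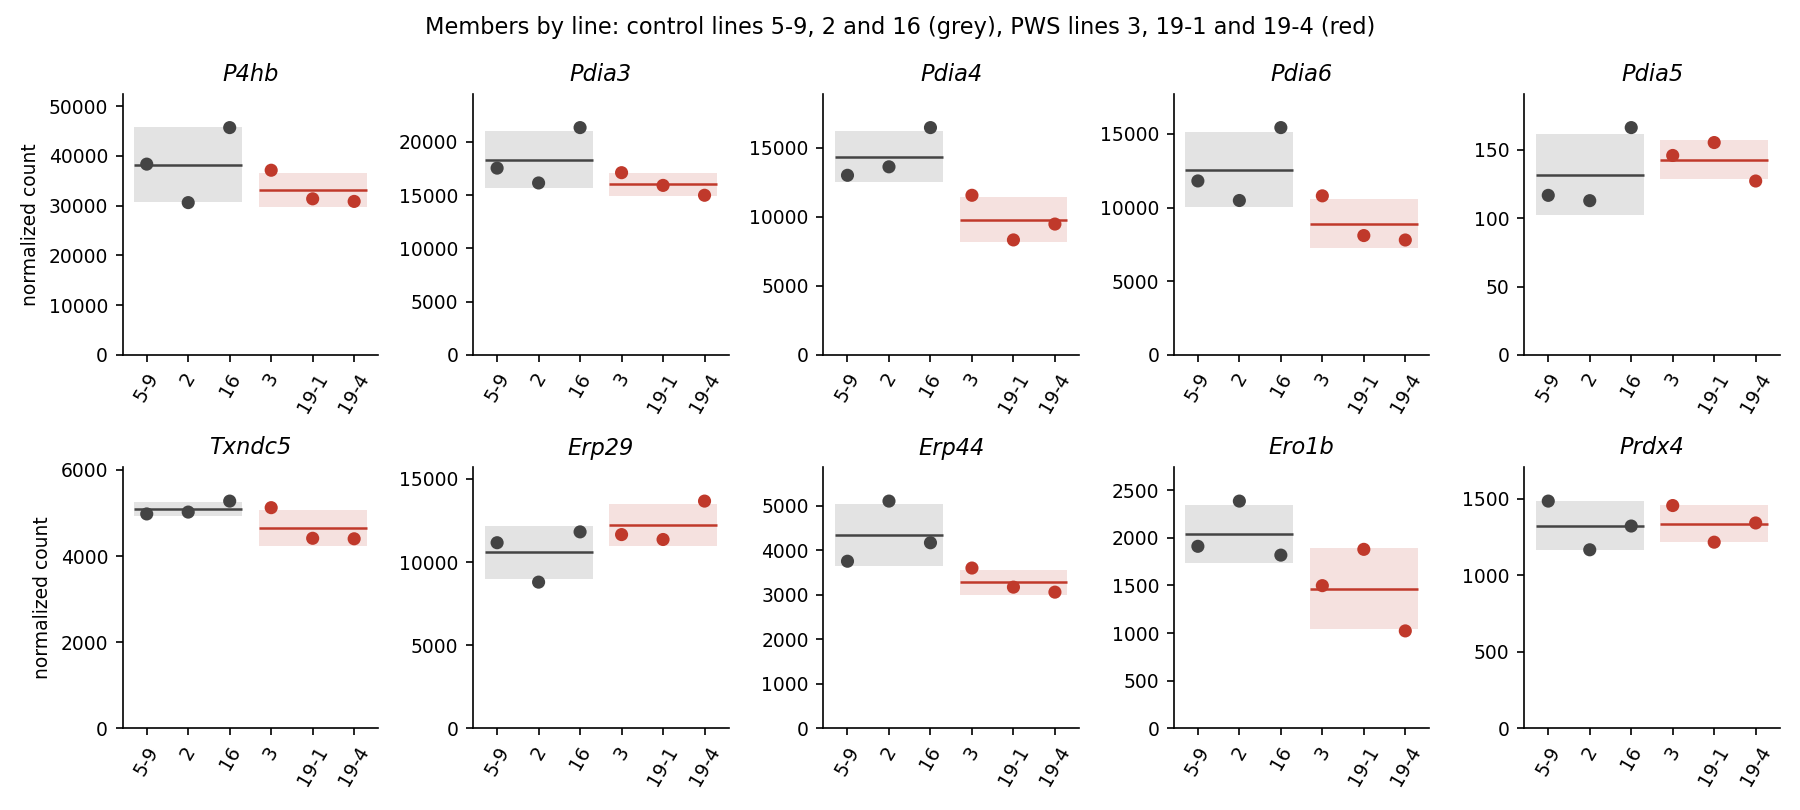
Normalized counts (vertical axes, starting at 0) of each member in the 3 control lines (grey) and the 3 PWS lines (red), with the mean of each group as a line and its SD (n = 3) as a band. Pdia4 and Erp44 show no overlap between the groups, while Prdx4 and P4hb overlap.

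**Figure D2:**
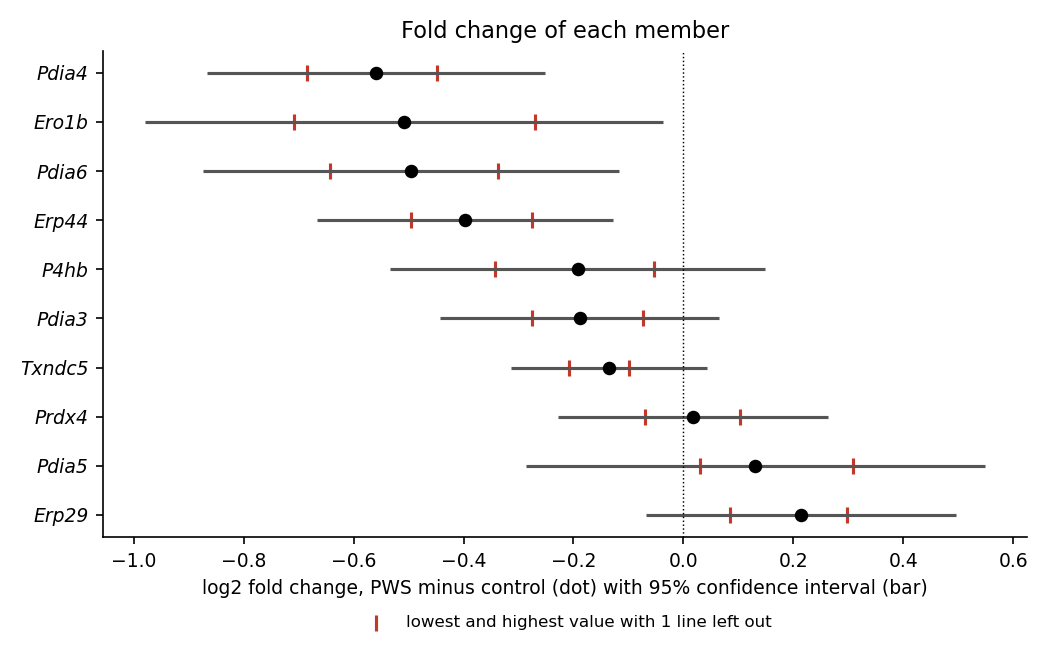
Log2 difference of each member (horizontal axis, PWS minus control) with its 95% confidence interval from limma, and the lowest and highest value when 1 line was left out. The intervals of Pdia4, Ero1b, Pdia6 and Erp44 lie below 0, without adjustment for the number of genes tested, and those of the other 6 members include 0.

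Pdia4 (ENSRNOG00000006228), also called ERp72, is an isomerase with several thioredoxin-like domains that is found with other ER chaperones. Its normalized counts were 12993 in line 5-9, 13606 in line 2 and 16445 in line 16 among controls. In PWS lines they were 11547 in line 3, 8318 in line 19-1 and 9465 in line 19-4. Every PWS line was below every control line, with line 3 nearest to the controls. The mean was 14348 ± 1841 (SD, n = 3) in control and 9777 ± 1637 (SD, n = 3) in PWS lines. This gave a log2 difference of -0.56 (SE 0.13, 95% confidence interval -0.87 to -0.25, limma adjusted p = 0.269), and DESeq2 gave an adjusted p of 0.00919. It stayed between -0.69 and -0.45 when each line was left out in turn.

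A feature without a symbol, AABR07060522.1 (ENSRNOG00000036459), is listed by the study under the name Pdia4. Its normalized counts were 847, 914 and 1085 in control lines 5-9, 2 and 16 and 739, 520 and 656 in PWS lines 3, 19-1 and 19-4. The groups again did not overlap, with a log2 difference of -0.58 (SE 0.14, limma adjusted p = 0.277, DESeq2 adjusted p = 0.0253). Of its reads, 0.0207% were assigned to it alone, compared with 93.2% for Pdia4, so its values cannot be told apart from those of other genes that share its reads and are not a second measurement.

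Pdia6 (ENSRNOG00000050197) encodes the isomerase P5, which works with the chaperone HSPA5 and binds the stress sensor IRE1. It had 11809, 10481 and 15430 normalized counts in the control lines 5-9, 2 and 16. It had 10797, 8101 and 7799.8 in PWS lines 3, 19-1 and 19-4. Both subclones of line 19 were below every control line, but PWS line 3 lay above control line 2, so the groups overlapped. The mean was 12573 ± 2562 (SD, n = 3) in control and 8899 ± 1650.3 (SD, n = 3) in PWS lines, which is a log2 difference of -0.49 (SE 0.17, limma adjusted p = 0.343, DESeq2 adjusted p = 0.0926). Without control line 16, the highest of the 6, the log2 difference was -0.34.

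P4hb and Pdia3 differed less. P4hb (ENSRNOG00000036689) is protein disulfide isomerase itself, which also serves as a subunit of collagen prolyl 4-hydroxylase and of the microsomal triglyceride transfer protein. It had 38349, 30614 and 45694 normalized counts in the control lines 5-9, 2 and 16 and 37122, 31377 and 30854 in PWS lines 3, 19-1 and 19-4. All 3 PWS lines lay within the range of the control lines. Its log2 difference was -0.19 (SE 0.15, 95% confidence interval -0.53 to 0.15, limma adjusted p = 0.667), and it was -0.05 without control line 16 but -0.34 without line 2. Pdia3 (ENSRNOG00000015018), or ERp57, which assists glycoproteins held by calnexin and calreticulin, had 17537, 16144 and 21342 in the controls and 17109, 15914 and 14988 in PWS lines. Lines 19-1 and 19-4 were below the lowest control and line 3 was not. For Pdia3 it was -0.19 (SE 0.11, 95% confidence interval -0.44 to 0.07, limma adjusted p = 0.564), and -0.07 without control line 16.

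Differences between members can also be given as ratios within a library. For every 100 normalized counts of P4hb there were 33.9, 44.4 and 36.0 of Pdia4 in control lines 5-9, 2 and 16, and 31.1, 26.5 and 30.7 in PWS lines 3, 19-1 and 19-4. For Pdia6 the same ratio was 30.8, 34.2 and 33.8 in control and 29.1, 25.8 and 25.3 in PWS lines. In both, every PWS line was below every control line, as were the ratios to P4hb of 1.08% of the other tested genes. Of the 9 other members these were the 2 with such a ratio, 3 (Pdia5, Erp29 and Prdx4) had every PWS line above every control line, as did 8.91% of the tested genes, and 4 overlapped. The ratios are a description of members whose differences had been seen. Ero1b was among the 4, with 4.98, 7.79 and 3.98 for every 100 of P4hb in control lines and 4.03, 5.99 and 3.32 in PWS lines. The ratio of Pdia3 to P4hb was 45.7 to 52.7 in control lines and 46.1 to 50.7 in PWS lines, where it stayed inside the control range. These ratios are not per length, so they compare lines and not the levels of different genes.

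Txndc5 and Pdia5 are the remaining isomerases. Txndc5 (ENSRNOG00000013469), or ERp46, which introduces disulfides rapidly into folding proteins, had 4976, 5019 and 5274 normalized counts in the control lines 5-9, 2 and 16 and 5122, 4411 and 4399 in PWS lines 3, 19-1 and 19-4. Its controls were the closest of any member, with a coefficient of variation of 3.16%, and lines 19-1 and 19-4 were below all of them. Its log2 difference was -0.14 (SE 0.08, limma adjusted p = 0.553), and -0.21 without PWS line 3. Pdia5 (ENSRNOG00000032327), or PDIR, had the fewest reads of the 10, from 123 to 162 per line. Its normalized counts were 117, 113 and 166 in control lines, against 146, 155 and 127 in PWS lines, which all lay within the control range. For Pdia5 the log2 difference was 0.13 (SE 0.18, 95% confidence interval -0.29 to 0.55, limma adjusted p = 0.832), which is smaller than the spread between lines. Counting error alone was up to 9.02% of a value, and 81.2% of the reads were assigned to Pdia5 alone. The difference was 0.22 when shared reads were dropped and 0.27 by RSEM, and with 1 line left out it ranged from 0.03 to 0.31.

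Erp44 and Erp29 are relatives that are not general disulfide donors. Erp44 (ENSRNOG00000005841) retrieves proteins from the early secretory pathway through its thiol and keeps the ERO1 oxidases, which carry no retention signal of their own, in the ER. Its normalized counts were 3751, 5101 and 4166 in control lines 5-9, 2 and 16 and 3599, 3170.0 and 3058 in PWS lines 3, 19-1 and 19-4. No PWS line reached the lowest control, but line 3 came close to line 5-9. The mean was 4339 ± 691 (SD, n = 3) in control and 3275 ± 286 (SD, n = 3) in PWS lines, which is a log2 difference of -0.40 (SE 0.12, limma adjusted p = 0.309, DESeq2 adjusted p = 0.0771). Without control line 2, its highest, the log2 difference was -0.27. Pdia4 and Erp44 were the only members without overlap, 2 of 10, while 9.01% of all tested genes had all PWS lines below all controls. No member had all PWS lines above all controls, which 8.43% of the tested genes did.

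Erp29 (ENSRNOG00000001348), which has a thioredoxin-like fold without the active cysteine pair and acts as an escort for secretory proteins, was higher on average. It had 11159, 8790.06 and 11810.5 normalized counts in the control lines 5-9, 2 and 16 and 11647, 11353 and 13660.3 in PWS lines 3, 19-1 and 19-4. Line 19-4 was above all controls and the other PWS lines were inside their range. Its log2 difference was 0.21 (SE 0.12, 95% confidence interval -0.07 to 0.50, limma adjusted p = 0.555). Only 42.8% of the reads counted for Erp29 were unique to it, the lowest share of the 10, and the rest also aligned elsewhere or to another feature. This value was 0.20 when shared reads were dropped and 0.21 by RSEM, which divides them, and it was 0.09 without control line 2.

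Ero1b (ENSRNOG00000002609), the ERO1 isoform enriched in the pancreas, gave the widest spread among PWS lines. It had 1910.3, 2385 and 1818 normalized counts in the control lines 5-9, 2 and 16. It had 1498, 1879 and 1023 in PWS lines 3, 19-1 and 19-4. Line 19-4 was lowest and line 3 was also below the controls, while line 19-1 lay above control line 16, so that the subclones 19-1 and 19-4 stood further apart than the means of the groups. With this spread the log2 difference was -0.51 (SE 0.21, 95% confidence interval -0.98 to -0.04, limma adjusted p = 0.420, DESeq2 adjusted p = 0.263), and it was -0.27 without line 19-4. The ubiquitous isoform, Ero1a, had 1351 to 1989 normalized counts in control and 1693 to 1797 in PWS lines, with a log2 difference of 0.10 (limma adjusted p = 0.826) that was -0.04 without control line 2. For every 100 of Ero1a there were 118, 176 and 91.4 of Ero1b in control lines 5-9, 2 and 16 and 88.5, 105 and 58.8 in PWS lines 3, 19-1 and 19-4, which overlap.

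Prdx4 (ENSRNOG00000003763), which takes up the peroxide of the ERO1 reaction, had 1486, 1168 and 1323 normalized counts in the control lines 5-9, 2 and 16 and 1457, 1217 and 1343 in PWS lines 3, 19-1 and 19-4. All PWS lines were within the control range. The log2 difference was 0.02 (SE 0.11, 95% confidence interval -0.23 to 0.26, limma adjusted p = 0.967), and its sign changed when control line 2 or PWS line 3 was left out.

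**Figure D3:**
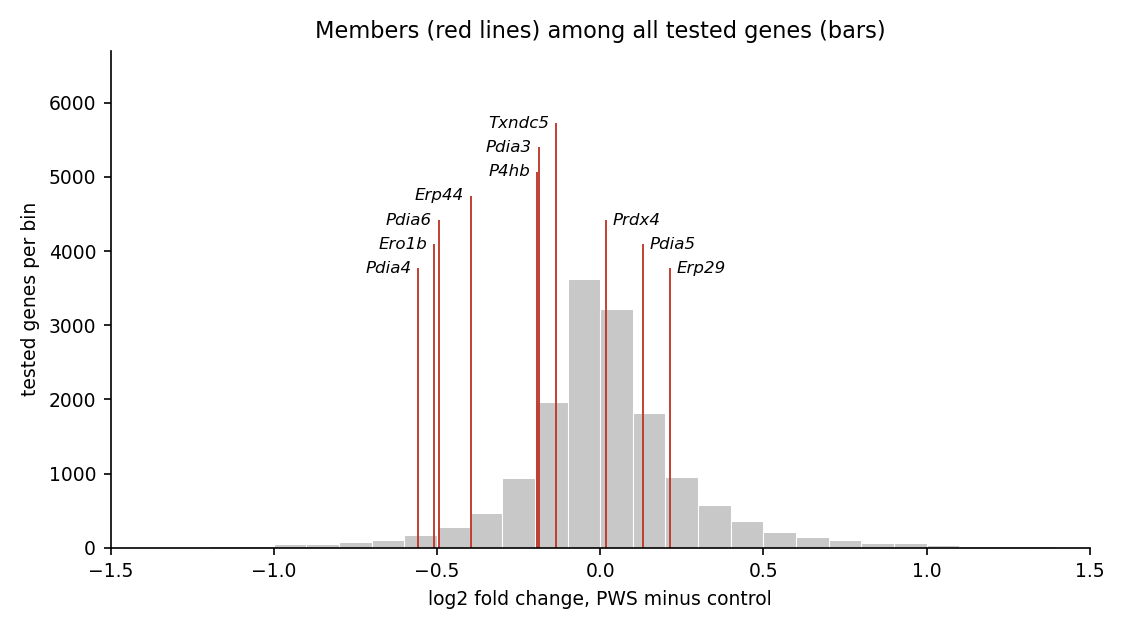
Number of tested genes (bars, vertical axis) by log2 difference (horizontal axis, PWS minus control, 0.1 per bar), with each member as a red line. Of the 15579 tested genes, 68 lie below and 56 above the plotted range. Pdia4, Ero1b, Pdia6 and Erp44 lie to the left of the bulk, and the other 6 members lie between -0.19 and 0.21.

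The lines differed from each other within their groups. Line 19-4 was the lowest PWS line for 7 of the 10 members and was below all controls for 6. Line 19-1 was below all controls for 5 and line 3 for 3. The same counts were not made over all tested genes, so they compare the lines and do not set the members apart. The median deviation of the members from their control means, on the log2 scale, was -0.06 in line 3, -0.20 in line 19-1 and -0.29 in line 19-4, against -0.06, -0.17 and 0.19 in control lines 5-9, 2 and 16. Control line 16 was the highest control for 7 members and line 2 the lowest for 6, so that lines 2 and 5-9 were within the range of the PWS lines by this measure. Over all tested genes the same median was at most 0.0035 from 0 in any line. Division by the size factors brings this median close to 0, so it is not a separate observation.

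Insulin, the main client of these enzymes, was also lower on average in PWS lines. Ins1, the insulin gene from which most insulin reads came, had 256090, 262628 and 282807 normalized counts in the control lines 5-9, 2 and 16 and 247273, 175597 and 133488 in PWS lines 3, 19-1 and 19-4. The groups did not overlap, with a log2 difference of -0.57 (SE 0.21, limma adjusted p = 0.389), which was -0.36 without PWS line 19-4. The mouse Ins2-mCherry transgene had 34169 to 47715 in control and 13027 to 25333 in PWS lines, a log2 difference of -1.18 (limma adjusted p = 0.192, DESeq2 adjusted p = 0.039), and the human insulin transgene had 3.08 to 79.8 in control lines, lowest in line 16, and 57.4 to 107 in PWS lines. The 10 members together had 35.2, 30.8 and 36.5 normalized counts for every 100 of all insulin genes in control lines 5-9, 2 and 16, and 36.4, 44.0 and 58.5 in PWS lines 3, 19-1 and 19-4. Lines 19-1 and 19-4 were above every control, line 3 was just below line 16, and line 19-4, lowest in insulin reads, was highest in this ratio.

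**Figure D4:**
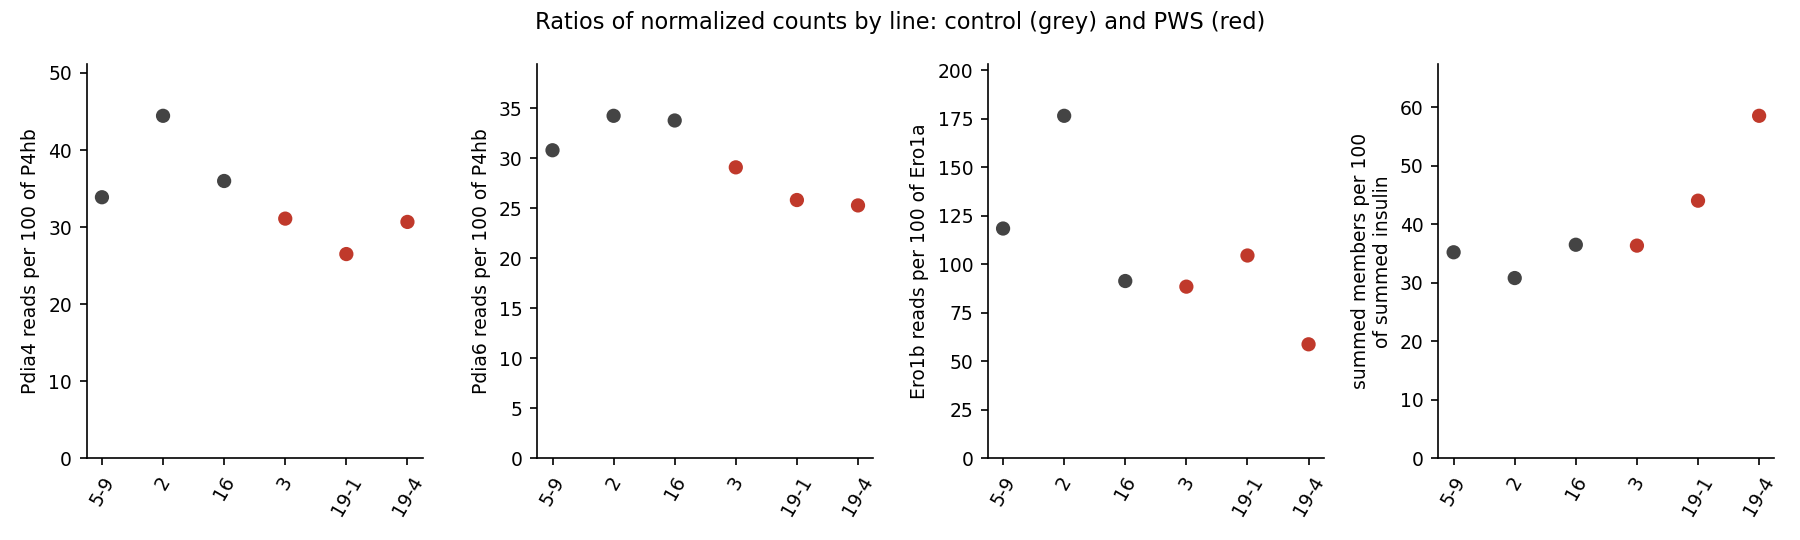
Ratios of normalized counts (vertical axes, starting at 0) in control lines (grey) and PWS lines (red). Pdia4 and Pdia6 per 100 of P4hb are below the controls in all 3 PWS lines (3 of the other members, not drawn, are above them and 4 overlap), Ero1b per 100 of Ero1a overlaps, and the 10 members per 100 of all insulin genes reach 44.0 and 58.5 in lines 19-1 and 19-4.

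Of 5 client genes (Ins1, Ins2, Iapp, Chga and Chgb), limma called 0 at an adjusted p-value of 0.05, edgeR called 0 and DESeq2 called 1, Chgb. Without adjustment 3 were lower and 1 higher at a limma p-value under 0.05, against 5.35% and 6% of all tested genes. Ins2 had the lowest value, a log2 difference of -0.99 (SE 0.42, limma adjusted p = 0.432), with overlapping groups, and ranged from -1.47 to -0.60 with 1 line left out. Chgb, a granule protein with a disulfide loop, had the highest at 1.59 (SE 0.28, limma adjusted p = 0.124, DESeq2 adjusted p = 0.027). It had 23244, 9355 and 12275 normalized counts in the control lines 5-9, 2 and 16 and 41825, 41729 and 41746 in PWS lines 3, 19-1 and 19-4. All 3 PWS lines were above all controls for this gene, as for no member.

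Other genes of the pathway were compared to place the members. Of 9 tested genes of the wider isomerase family, 7 were lower and 2 higher on average (median -0.09), and 0 passed the adjusted threshold in limma, edgeR or DESeq2. Txndc12 had the lowest value at -0.15 (limma adjusted p = 0.596) and Txndc11 the highest at 0.05 (limma adjusted p = 0.907). Txndc12 was at -0.05 without control line 2, and Txndc11 was at -0.07 without control line 5-9. Without adjustment, where 5.35% of all tested genes were lower at a limma p-value under 0.05, 1 of the 9 was. This was Dnajc10, an ER reductase singled out after its values were seen, which had 5036 to 5268 normalized counts in control and 4654 to 4735 in PWS lines. Erp27 and Agr3 had no read in any line.

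Of 9 tested further genes of ER redox chemistry, the median log2 difference was -0.04 and 0 passed the adjusted threshold in any of the 3 tests. At an unadjusted limma p-value under 0.05, 2 were lower (Qsox1 and Selenof, the latter named after its values were seen), against 5.35% of all tested genes. In this list Vkorc1l1, named after its values were seen, had 0.171% of its reads assigned to it alone, and its log2 difference went from 0.13 to -0.52 by RSEM, where the median of the list was -0.12. Qsox1, a sulfhydryl oxidase that makes disulfides without an isomerase, was lowest in the main counting, with a log2 difference of -0.52 (SE 0.18, limma adjusted p = 0.364, DESeq2 adjusted p = 0.179). It had 634, 807 and 807 normalized counts in the control lines 5-9, 2 and 16 and 654, 542 and 398 in PWS lines 3, 19-1 and 19-4, so the groups overlapped, and its difference was -0.32 without line 19-4. Vkorc1, the enzyme that recycles vitamin K, was highest at 0.16 (limma adjusted p = 0.707), but it was -0.007 without control line 2.

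Of 10 tested genes for proteins that work with the members, 9 were lower on average (median log2 difference -0.16). Without adjustment 4 were lower and 1 higher at a limma p-value under 0.05, against 5.35% and 6% of all tested genes. By limma and edgeR 0 passed the adjusted threshold and by DESeq2 2 did, Hspa5 and Ppib, the latter named after its values were seen. Both were lower, and DESeq2 called 0.784% of all genes lower. Hspa5 encodes BiP, the ER chaperone with which P5 acts. It had 59385, 70665 and 72342 normalized counts in the control lines 5-9, 2 and 16 and 54202, 40807 and 40088 in PWS lines 3, 19-1 and 19-4, without overlap. Its log2 difference was -0.59 (SE 0.14, limma adjusted p = 0.265, DESeq2 adjusted p = 0.003). Ppib, an ER prolyl isomerase, had a log2 difference of -0.35 (limma adjusted p = 0.258, DESeq2 adjusted p = 0.023). The highest was Itpr1, the calcium release channel that ERp44 binds, at 0.24 (SE 0.07, limma adjusted p = 0.305).

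Of 10 regulators of the ER stress response, 6 were lower and 4 higher on average, with a median of -0.02, and 0 passed the adjusted threshold in limma, edgeR or DESeq2. Without adjustment 2 were higher at a limma p-value under 0.05, Ern1 and Atf6, the latter named after its values were seen. In the same direction 6% of all tested genes had such a p-value. Ern1, which encodes IRE1, was highest at 0.31 (SE 0.08, limma adjusted p = 0.285), with 1043 to 1179 normalized counts in control and 1243 to 1418 in PWS lines. Nfyc, a subunit of the CCAAT-binding factor NF-Y, was lowest at -0.24 (SE 0.15, limma adjusted p = 0.590), and it was -0.05 without control line 2, where it was highest. Transcript levels do not show whether these sensors were active.

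The genes whose profile over the 6 lines was most like that of a member were sought among 7118 genes with a symbol and a mean of at least 500 normalized counts. Likeness was measured as the root mean square difference between log2 values centred on each gene's mean, so that a smaller value is a closer profile, and 6 points that share the difference between groups allow many close profiles. For Pdia4 the nearest were Ripply3 (0.0686), Dnajb11 (0.0751), an ER co-chaperone of BiP, and Tmem163 (0.0781), while the nearest other member was Pdia6 (0.119). For Pdia6 they were Tmem163 (0.0799), Dnajc3 (0.0822), an ER co-chaperone and inhibitor of PERK, and Hsp90b1 (0.0863), the ER member of the HSP90 family. For Ero1b they were Bambi (0.117), App (0.128) and Abcb1a (0.144), none of them an ER folding protein, and its nearest member, Erp44, was at 0.255. Among these 7118 genes, the nearest profiles to Ero1b were thus less close than those to Pdia4 and Pdia6. The distance is not scaled to the spread of a gene, and Ero1b had the widest spread among PWS lines.

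Promoters were read for 8 of the 10 members from RefSeq (assembly GRCr8), from 250 bases before to 50 bases after the start. This is not the build to which the reads were aligned, and Pdia3 and Pdia6 were not among them. Those of Pdia4, Erp44 and Ero1b are shown because these genes had 3 of the 4 most negative differences. Pdia4 lies on the minus strand at chr4:78153142-78153441, Erp44 on the minus strand at chr5:67406158-67406457 and Ero1b on the plus strand at chr17:92941432-92941731. Capitals mark CCAAT, bound by NF-Y, CCACG, the other part of the ER stress response element, and GACGTG, a core shared by ATF6 and XBP1 sites, on either strand, so that a match on the reverse strand appears as its reverse complement.
Pdia4: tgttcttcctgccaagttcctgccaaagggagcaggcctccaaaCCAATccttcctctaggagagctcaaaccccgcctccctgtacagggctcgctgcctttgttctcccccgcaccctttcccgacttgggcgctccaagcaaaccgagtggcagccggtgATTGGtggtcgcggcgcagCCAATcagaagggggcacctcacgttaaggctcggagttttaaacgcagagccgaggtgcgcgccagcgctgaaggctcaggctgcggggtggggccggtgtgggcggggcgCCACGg
Erp44: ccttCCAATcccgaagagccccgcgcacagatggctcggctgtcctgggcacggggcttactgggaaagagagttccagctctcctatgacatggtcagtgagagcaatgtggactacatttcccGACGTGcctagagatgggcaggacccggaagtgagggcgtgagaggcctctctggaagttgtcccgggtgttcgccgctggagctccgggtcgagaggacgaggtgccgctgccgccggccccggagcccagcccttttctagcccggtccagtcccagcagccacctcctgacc
Ero1b: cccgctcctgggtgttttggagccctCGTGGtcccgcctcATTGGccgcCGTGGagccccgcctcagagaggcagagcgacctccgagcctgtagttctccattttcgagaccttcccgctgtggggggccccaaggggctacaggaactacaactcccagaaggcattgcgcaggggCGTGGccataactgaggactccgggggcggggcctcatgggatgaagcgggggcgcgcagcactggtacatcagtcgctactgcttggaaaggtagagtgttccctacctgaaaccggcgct

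The complete ER stress response element, in which any 9 bases separate the CCAAT box from the second part, was found in 1 of the 8 promoters, that of Ero1b, on the reverse strand 224 bases before the start, and in 0.0657% of all 33469 promoters (22 of them). Pdia4 had 3 CCAAT boxes, 206, 87 and 68 bases before the start, and CCACG 45 bases after it, but not at the spacing of the element. Erp44 had GACGTG 125 bases before the start and no CCACG. The letters CCACG were in 7 of the 8 and in 31.6% of all promoters, CCAAT in 5 of the 8 and in 37.5%, and GACGTG in 3 of the 8 (Pdia5, Erp29 and Erp44) and in 6.31%. The longer TGACGTGG was in 0 of the 8 and in 0.595% of all. The first pair of motifs are parts of the complete element, the core is part of the longer motif, and a core followed by G overlaps the second part of the element on the other strand, as in Pdia5. These matches describe letters in a window and say nothing of binding. Erp29, Prdx4 and Pdia5, which were higher on average, also held CCACG, so its presence did not separate them from the members that were lower.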

How the data were processed

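Total RNA-seq of 3 control and 3 PWS INS-1 lines was used, 1 library per line. The authors removed adapters with cutadapt, ran STAR against Ensembl release 98 of the rat genome plus the transgenes, counted reads with HTSeq 0.11.2 (nonunique all or none) or RSEM 1.3.1, and deposited a signal per line: counts divided by DESeq2 size factors. The authors' own fold changes and p-values were not used. Under nonunique all counting, a read that aligns to several features is counted at each. Dividing by the value of 1 read gave whole reads (within 0.1) for 100% of the HTSeq values above 0.

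The main test was limma 3.58.1 in R 4.3.3 (lmFit, eBayes with trend), applied to log2(normalized count + 1). A gene was tested when its mean was 5 or more, which left 15579 genes, and p-values were adjusted by Benjamini-Hochberg with 0.05 as the threshold. edgeR 4.0.16 and DESeq2 1.42.0 on the recovered reads were among 19 alternatives. Groups of 3 allow no exact two-sided p under 0.1. Intervals given as counting error cover that alone. Each test was tested on simulated data.

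The members and the gene lists were chosen with earlier results of these data known. The text names all members, a listed copy, the lowest and highest gene of each list, the 3 nearest profiles of 3 members, and insulin genes. Pdia2, G6pc2 and Pecam1 were not analysed here, and protein sequences and lengths were not used here.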

Additional observations from a re-analysis of the deposited data

How the results depend on the processing

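The number of members past an adjusted p-value of 0.05 was 0 with limma in either direction and 0 under every alternative run except DESeq2, which gave 1 lower (Pdia4). DESeq2 also gave 2 of the genes for partner proteins (Hspa5 and Ppib) and 1 of the client genes (Chgb), where limma gave 0. Leaving out 1 line at a time gave 0 to 1 client genes (1 without control line 5-9) and 2 to 5 members whose groups did not overlap (2 with all lines): 5 without control line 2, control line 16 or PWS line 3. These were all lower without line 2 or line 3, and 3 lower and 2 higher (Pdia5 and Erp29) without line 16. Groups of 2 against 3 separate more often: of all tested genes, 14.6%, 14.4% and 15.7% were then lower without overlap, and 13.7%, 14.6% and 14.9% higher. The median log2 fold change of the members lay between -0.28 and -0.09 with 1 line left out, and at -0.16 with lines 19-1 and 19-4 averaged, -0.19 with nonunique none counting or TMM scaling and -0.18 with RSEM. Prdx4 changed sign without control line 2 (-0.070) and without PWS line 3 (-0.045), and lay between -0.070 and 0.104 when each line was left out in turn. The log2 fold change of the other 9 members kept its sign under every alternative, but Pdia5 was above Erp29 by nonunique none counting (0.22 against 0.20), by RSEM (0.27 against 0.21), without control line 16 (0.31 against 0.30) and without PWS line 19-4 (0.21 against 0.13). Same-numbered lines share only a number: their deviations from the group means had correlations of 0.003, 0.047 and 0.005. With the replicate number as a block (replicate block), 0 members passed, the median stayed at -0.19, and Pdia4 had an adjusted p of 0.255 in limma. With 3 lines from 2 clones in the PWS group, a difference between genotypes cannot be told apart from a difference between clones.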
